A study of Rattus norvegicus with 6 samples.

Results

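Keratins are the intermediate filament proteins of epithelial cells, and 46 keratin genes are described here out of the 22093 genes measured in rat tendon after injury. The members were chosen by name, as the genes whose symbol is Krt followed by a number and at most 1 letter and that a probe set names alone. Keratin-associated proteins (Krtap genes) were not members. Where a gene had several probe sets, the one brightest on average across the 6 arrays was kept, and this step used the measured values for Krt7 and Krt18, the 2 keratins with more than 1 probe set. The 46 genes comprise 24 of type I and 22 of type II. By the epithelium in which they are best known they comprise 14 epidermal keratins, 21 keratins of hair and hair sheath, 5 of simple epithelium and 4 of mucosa or cornea, and Krt90 and Krt222 were left unclassed. A further 3 probe sets that name several keratin genes, Krt5 among them, are not analysed here.

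The series compares tendon of Sprague-Dawley rats with injured tendons (3 arrays) and tendon of Sprague-Dawley rats with control surgery (3 arrays), all taken 1 week after the operation. Rats were assigned at random and 1 array was run per sample. The age and sex of the rats, the tendon used and the kind of injury are unstated in the labels, and the labels call the replicates biological. Values are log2 signals as the authors deposited them, so a difference of 1 is a doubling.

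A keratin filament is built from pairs of 1 acidic type I chain and 1 basic type II chain. Basal cells of the epidermis pair Krt5 with Krt14, cells that leave the basal layer pair Krt1 with Krt10, wounded or fast-renewing epidermis adds Krt6 chains with Krt16 and Krt17, and simple epithelia such as gut and gland pair Krt8 with Krt18. Hair shaft and root sheath have keratins of their own. Tendon is connective tissue, whose cells carry the intermediate filament protein vimentin, and keratins are not typical of it. In the rat assembly GRCr8 the type I genes lie together on chromosome 10 (23 of the 24 members) and the type II genes on chromosome 7 (22 members). Krt18 is the type I gene that lies on chromosome 7, next to Krt8.

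Krt10 and its neighbours Krt28 and Krt12 lie side by side on chromosome 10 and gave unlike readings on injured replicate 1, so the 250 bases before their starts are shown, in lower case with the TATA box TATAAA in capitals. The sequences are from RefSeq on GRCr8 and all read from the minus strand, at chr10:84839161-84839410 for Krt10, chr10:84824858-84825107 for Krt28 and chr10:84874266-84874515 for Krt12.
Krt10: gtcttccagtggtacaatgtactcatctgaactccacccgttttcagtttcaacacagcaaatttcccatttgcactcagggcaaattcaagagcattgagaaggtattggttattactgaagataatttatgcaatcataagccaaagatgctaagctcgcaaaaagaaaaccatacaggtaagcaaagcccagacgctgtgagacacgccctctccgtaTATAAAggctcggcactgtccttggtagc
Krt28: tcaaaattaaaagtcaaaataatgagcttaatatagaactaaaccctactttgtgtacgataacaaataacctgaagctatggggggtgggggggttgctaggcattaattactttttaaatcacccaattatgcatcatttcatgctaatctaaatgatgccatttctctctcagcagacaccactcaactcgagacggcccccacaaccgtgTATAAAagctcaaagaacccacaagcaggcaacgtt
Krt12: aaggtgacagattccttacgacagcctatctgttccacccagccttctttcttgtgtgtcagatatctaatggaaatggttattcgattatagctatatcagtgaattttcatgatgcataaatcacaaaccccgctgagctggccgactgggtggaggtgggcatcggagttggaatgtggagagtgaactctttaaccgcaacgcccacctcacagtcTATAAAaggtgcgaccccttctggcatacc

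All 3 windows hold TATAAA on the strand of the gene, with its first base 29 bases before the start in Krt10, 36 in Krt28 and 30 in Krt12. Promoter windows were matched for 33 of the 46 keratins by symbol, 35 windows in all because Krt79 has 3 starts. TATAAA on either strand, at any position, was in 54.3% of the keratin windows and in 12.9% of all 33469 windows of this length. It began 20 to 40 bases before the start, on the strand of the gene, in 7 of the 33 keratins. TGANTCA, the letters of an AP-1 site, was in 2.86% of keratin windows and 6.34% of all windows, and GCCNNNGGC, those of an AP-2 site, was in 11.4% and 12.6%. These matches describe the letters, and where 2 motifs overlapped each was counted.

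The arrays did not form 2 even groups. Injured replicate 1 correlated across genes with the control arrays at r = 0.952 to 0.966, and with injured replicates 2 and 3 at r = 0.728 and 0.790, while the last 2 correlated with each other at r = 0.965. These correlations run over genes, which do not replicate each other independently, and describe the arrays only. A reference level of genes that tendon is not known to use was read from 1276 olfactory and vomeronasal receptor genes, called chemoreceptor genes below. Their median signal was 5.72, 7.84 and 7.78 on injured replicates 1, 2 and 3 and 5.42, 5.77 and 6.04 on control replicates 1, 2 and 3. The median over all genes was 6.26, 6.78 and 6.72 on the injured arrays and 6.20, 6.30 and 6.40 on the control arrays. On injured replicates 2 and 3 the chemoreceptor median was thus above that of all genes. A reading below the chemoreceptor median there does not by itself place a gene at background. Tenocyte markers were bright on the control arrays. Kera, which encodes keratocan of the tendon matrix, read 8.90 to 9.79 on the injured arrays and 15.46 to 19.17 on the control arrays. Thbs4, a matrix protein gene of tendon and muscle, read 8.80 to 13.45 on the injured arrays and 15.11 to 17.79 on the control arrays. Scx, the transcription factor gene that defines tenocytes, read 5.44 to 5.78 on injured and 5.67 to 5.75 on control arrays, close to the chemoreceptor median of the control arrays.

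Krt1, Krt10 and Krt14, all epidermal, were far above the rest of the family on 1 injured array, and the other 43 differed by less than 1 log2 unit between the groups. Krt1 read 14.04, 5.75 and 5.61 on injured replicates 1, 2 and 3 and 5.31, 4.97 and 5.29 on control replicates 1, 2 and 3. The high reading on injured replicate 1 was 8.85 above the control mean, or 461-fold, while the other injured arrays were 0.56 and 0.42 above it. Over the groups Krt1 averaged 8.47 ± 4.83 in injured and 5.19 ± 0.19 in control tendon (SD, n = 3 each), a difference of 3.28 (SE 2.34) with a limma adjusted p of 0.379. The injured and control arrays did not overlap for Krt1, but the spread within the injured group exceeded the difference.

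Krt10, the type I partner of Krt1, read 10.38, 6.57 and 6.53 on the injured arrays and 5.74, 5.53 and 5.95 on the control arrays. Injured replicate 1 again stood apart, 4.64 above the control mean, against 0.83 and 0.79 for injured replicates 2 and 3. The difference between the groups was 2.09 (SE 1.08), with a limma adjusted p of 0.322. Krt28 and Krt12, the neighbours of Krt10 whose upstream sequences are shown with it, read 4.43 and 5.83 on injured replicate 1, only 0.04 above and 0.11 below their control means of 4.39 and 5.94. Krt2, the neighbour of Krt1 and itself a keratin of the outer epidermis, read 5.70, 5.80 and 5.79 on injured and 5.45, 5.42 and 5.59 on control arrays, so it did not share the high reading.

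Krt14, the type I keratin of basal epidermal cells, read 8.52, 6.59 and 6.28 on the injured arrays and 5.83, 5.74 and 6.01 on the control arrays. It was 2.66 above the control mean on injured replicate 1, and the difference between the groups was 1.27 (SE 0.61; limma adjusted p = 0.322). Krt15, which also marks basal cells and was chosen after its values were seen, read 6.75, 6.31 and 6.21 on the injured arrays and 6.03, 5.77 and 5.97 on the control arrays. It was the only other keratin at least 0.44 above every other array on injured replicate 1. On that array Krt1, Krt10 and Krt14 were the keratins above the 95th percentile of the chemoreceptor genes, which stood at 7.19, and no keratin was above it on injured replicates 2 and 3, where it stood at 10.2 and 9.99. On control replicate 1, where it stood at 6.58, the 4 type II keratins Krt78, Krt79, Krt88 and Krt90 were above it, at 6.61 to 7.05. None was above it on control replicates 2 and 3. Of all 22093 genes, 7361, 715 and 857 were above it on injured replicates 1, 2 and 3. On control replicates 1, 2 and 3 these numbers were 9412, 7428 and 5695. Most genes were thus below it on every array, as most keratins were.

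Of all genes tested, 1.57% were at least 1 log2 unit higher on injured replicate 1 than on every other array, and 3 of the 46 keratins were. Krt1 had the widest such margin of all 22093 genes, 8.29, and Krt10 came 14th with 3.81. Krt14 had a margin of 1.93. With injured replicate 1 left out, the differences of Krt1, Krt10 and Krt14 were 0.49, 0.81 and 0.58.

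**Figure D1:**
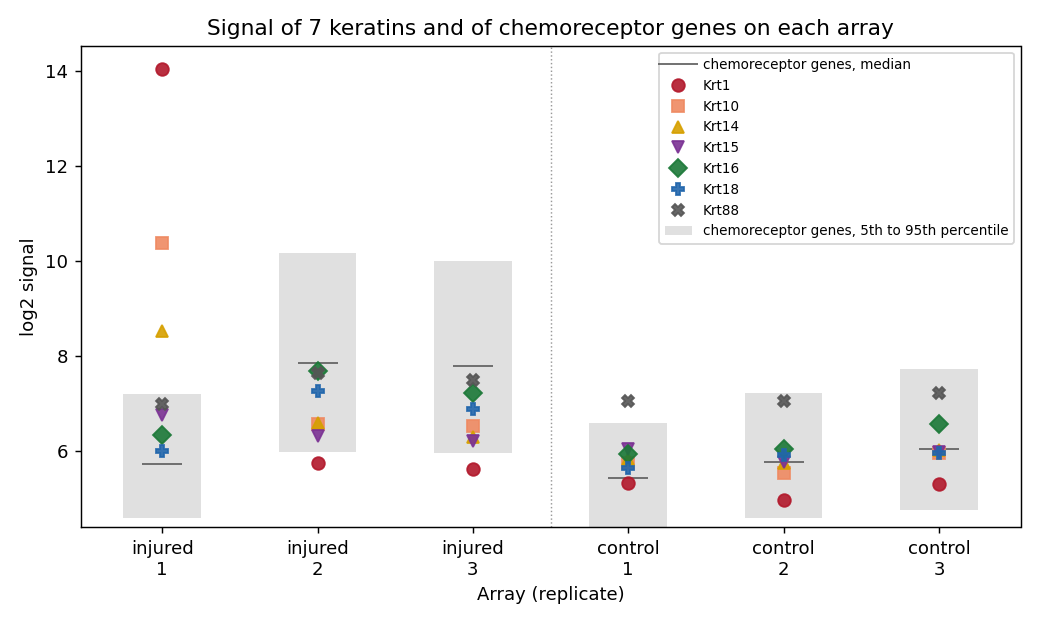
Log2 signal of 7 keratins (symbols) on each of the 6 arrays, with the 5th to 95th percentile (grey bars) and the median (short lines) of 1276 chemoreceptor genes. On injured replicate 1, Krt1, Krt10 and Krt14 at 14.04, 10.38 and 8.52 lie above the grey bar. On injured replicates 2 and 3 all 7 keratins lie below the chemoreceptor median, which is above the median of all genes there.

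Of the measured keratins tied to wounded epidermis, Krt16 was highest on injured replicates 2 and 3. Krt6a had no probe set of its own, and no Krt6 chain is among the keratins described here. Krt16 read 6.33, 7.67 and 7.21 on injured replicates 1, 2 and 3 and 5.93, 6.04 and 6.56 on the control arrays. The groups overlapped, since injured replicate 1 lay below control replicate 3, and the difference was 0.89 (SE 0.39; limma adjusted p = 0.322). Krt17, another type I keratin of wounded and appendage epithelium, read 5.85, 5.99 and 5.72 on the injured arrays and 5.46, 5.38 and 5.49 on the control arrays, a difference of 0.41 (SE 0.15; limma adjusted p = 0.322). Every injured array was above every control array for Krt17, and none of its values reached 6.

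The other epidermal keratins differed among themselves in how far injured replicates 2 and 3 lay above control. Krt78, the keratin with the highest mean signal over the 6 arrays, read 7.06, 8.26 and 7.91 on the injured arrays and 6.61, 6.67 and 7.29 on the control arrays. Krt9, a keratin of palm and sole skin chosen after its values were seen, read 6.20, 7.14 and 6.90 on the injured arrays and 6.04, 5.83 and 5.96 on the control arrays. Its unadjusted p of 0.0279 was the lowest in the family, and its difference was 0.80 (SE 0.27; limma adjusted p = 0.322). Krt79, known from the duct cells of hair follicles in the mouse, read 7.06, 6.95 and 7.0 on the injured arrays and 6.68, 6.86 and 6.73 on the control arrays. Krt42, chosen after its values were seen because it differed least, read 5.61, 5.62 and 5.77 on the injured arrays and 5.61, 5.59 and 5.66 on the control arrays.

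All 5 keratins of simple epithelium were highest on injured replicates 2 and 3, an order that 49.7% of all genes shared. Krt18 read 5.99, 7.25 and 6.87 on injured replicates 1, 2 and 3 and 5.64, 5.90 and 5.95 on the control arrays, a difference of 0.87 (SE 0.35; limma adjusted p = 0.322). Its type II partner Krt8 read 5.56, 6.07 and 5.69 on the injured arrays and 5.58, 5.49 and 5.58 on the control arrays, a difference of 0.22 (SE 0.18; limma adjusted p = 0.427). The pair had unlike differences, and the difference between them was not tested. The dimmer probe set of Krt18, which was not kept, read 3.74, 4.02 and 4.25 on the injured arrays. It read 3.87, 3.78 and 3.76 on the control arrays, so the groups overlapped for it. The rat annotation lists several Krt18 pseudogenes, and their part in the signal of Krt18 was not tested. Krt19, a keratin of ducts and of some stem cells, read 5.77, 6.15 and 5.99 on the injured arrays and 5.58, 5.55 and 5.65 on the control arrays, with no overlap between the groups.

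None of the 21 keratins of hair shaft and root sheath had every injured array above every control array, as 7.09% of all genes did. For all 21, injured replicates 2 and 3 were both above the other 4 arrays. That order was shared by 49.7% of all genes and 99.3% of chemoreceptor genes. The median hair keratin was 0.04 below its control mean on injured replicate 1 and 0.72 and 0.50 above it on replicates 2 and 3. Krt88, the brightest of them, read 6.99, 7.64 and 7.48 on the injured arrays and 7.05, 7.05 and 7.21 on the control arrays. Krt83 read 6.38, 7.38 and 7.19 on the injured arrays and 6.48, 6.32 and 6.72 on the control arrays, and Krt85 read 6.46, 6.96 and 7.01 against 6.57, 6.67 and 6.77. Krt26, a root sheath keratin chosen after its values were seen, read 5.41, 6.59 and 6.34 on the injured and 5.41, 5.34 and 5.43 on the control arrays. Its difference of 0.72 (SE 0.33) was the largest of the hair keratins, with a limma adjusted p of 0.322. Hair keratins resemble one another closely in sequence, so the values of neighbouring members are uncertain where their probes match several genes.

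The 4 keratins of mucosa and cornea followed the hair keratins. Krt76, a keratin of the palate, read 6.58, 7.57 and 7.36 on the injured arrays and 6.50, 6.53 and 6.79 on the control arrays. Krt12, the keratin of the corneal surface, read 5.83, 6.79 and 6.82 on the injured arrays and 5.87, 5.85 and 6.09 on the control arrays. Krt13, a keratin of mouth and gullet lining, read 5.68, 6.43 and 6.36 on the injured arrays and 5.75, 5.68 and 5.76 on the control arrays. Injured replicate 1 lay within the control range for Krt76 and Krt13 and just below it for Krt12, and injured replicates 2 and 3 lay above all other arrays.

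**Figure D2:**
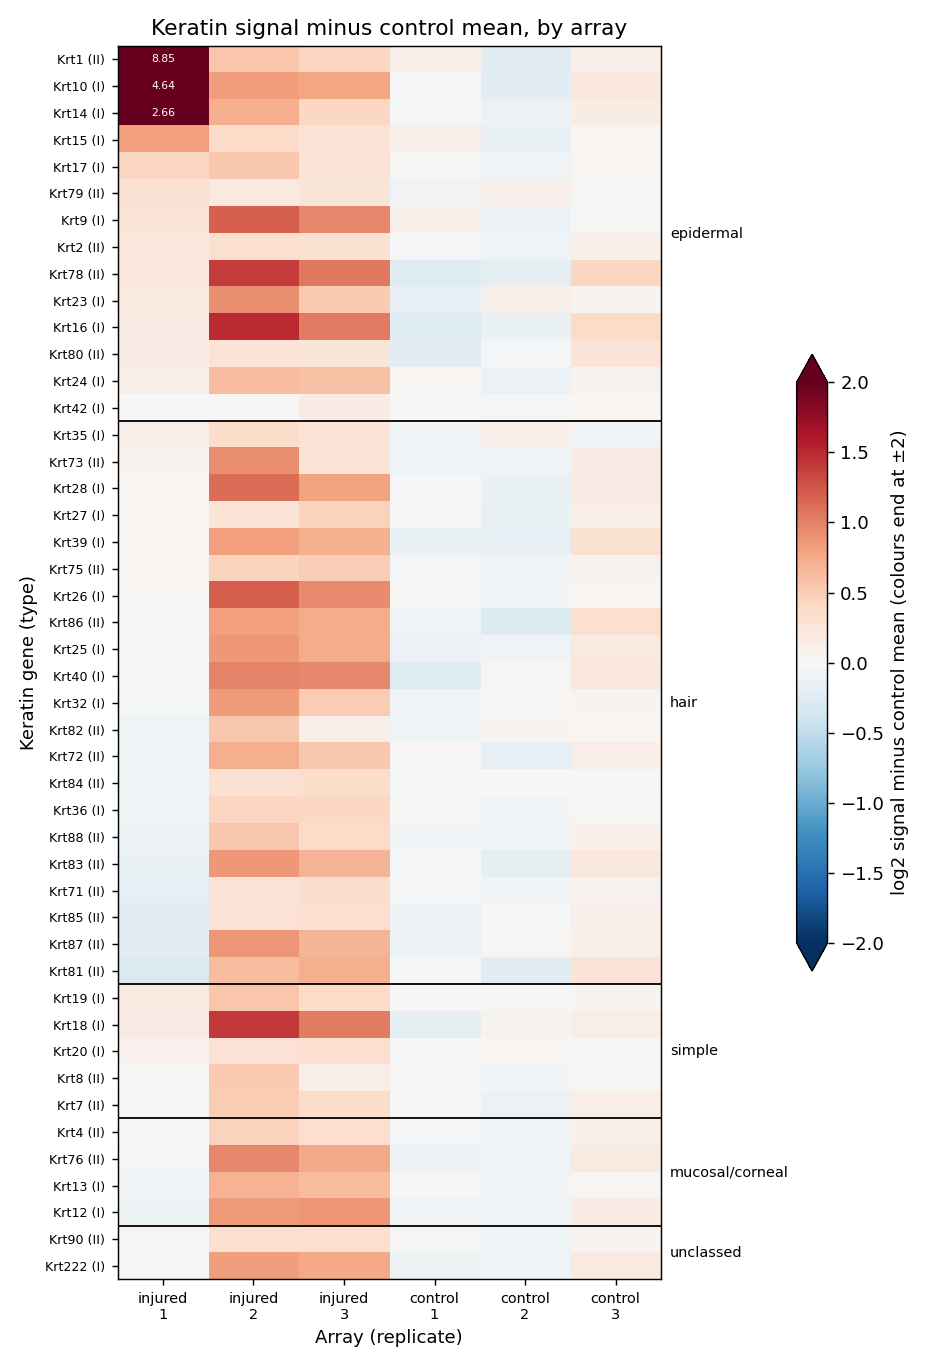
Log2 signal minus the control mean for the 46 keratins (rows, with the type in brackets, grouped by class and ordered by injured replicate 1) on the 6 arrays (columns), with red above and blue below the control mean and numbers where the colours end. Krt1, Krt10 and Krt14 are 8.85, 4.64 and 2.66 above the control mean on injured replicate 1, and most other rows are red on injured replicates 2 and 3 alone.

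Across the family, all 46 differences between injured and control tendon were above 0, with a median of 0.43 and a range of 0.05 to 3.28. Over all genes tested 61.6% of differences were above 0, and the median was 0.15. None of the 46 keratins and none of the 22093 genes (0%) passed a limma adjusted p of 0.05. With injured replicate 1 left out, 34 of the 46 keratins passed, against 60.7% of all genes. At an unadjusted p under 0.05 over all 6 arrays, 4 keratins were higher (Krt9, Krt15, Krt17 and Krt18) and 0 were lower, against 4.39% of all genes higher and 7.25% lower. Type I keratins had a median difference of 0.52 over 24 genes and type II keratins of 0.28 over 22 genes. The medians by class were 0.52 for epidermal, 0.39 for hair, 0.28 for simple-epithelium and 0.48 for mucosal and corneal keratins. The chemoreceptor genes had a median difference of 1.36. What part such a shift of dim genes has in the keratin differences was not tested.

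The direction of the family depended on the scale. With each array centred on its median over all probe sets, 15 of 46 differences were above 0 and the median was -0.10. After quantile normalization 18 were above 0 and the median was -0.08. With each array centred on the chemoreceptor genes, 2 were above 0, those of Krt1 and Krt10, and the median was -0.94. Krt14 was among those that turned, to -0.10. Krt1 and Krt10 were above 0 at all 3 of these settings.

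The 3 injured arrays contributed unequally to these values. The median keratin was 0.02, 0.61 and 0.48 above its control mean on injured replicates 1, 2 and 3, and -0.03, -0.06 and 0.10 from it on control replicates 1, 2 and 3. Chemoreceptor genes were at -0.03, 2.11 and 2.03 on the injured arrays. For 38 keratins injured replicates 2 and 3 were both above the other 4 arrays, against 49.7% of all genes and 99.3% of chemoreceptor genes. The 8 other keratins, all of the epidermal class, were Krt1, Krt10, Krt14, Krt15, Krt17, Krt42, Krt79 and Krt80. The largest differences on injured replicates 2 and 3 were 1.49 for Krt16 and 1.05 for Krt78, below the chemoreceptor medians there. Probe sets without a gene symbol moved less than the chemoreceptor genes. Their median read 5.59, 6.61 and 6.50 on the injured arrays and 5.49, 5.58 and 5.79 on the control arrays.

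Every injured array was above every control array for 13 of the 46 keratins, against 7.09% of all genes. These were 10 epidermal keratins and the simple-epithelium keratins Krt18, Krt19 and Krt20, and no hair or mucosal keratin was among them. No keratin had every injured array below every control array, against 8% of all genes. The SD between injured arrays was larger than the SD between control arrays for 43 of the 46 keratins. Most members were dim: 25 of the 46 had a mean signal below 5.93, the mean over the arrays of the median unnamed probe set.

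**Figure D3:**
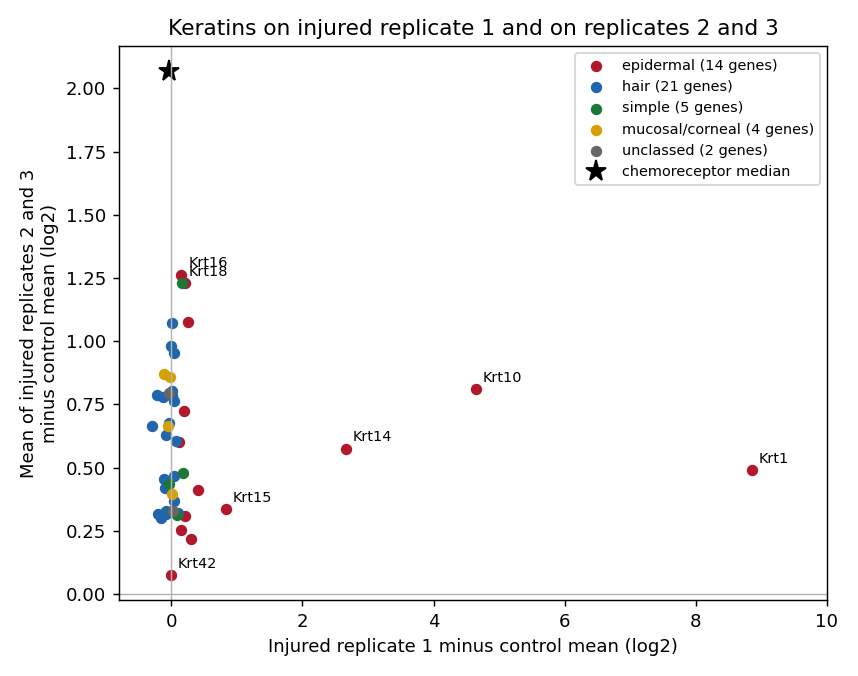
Each point is 1 keratin, coloured by class, with its log2 signal minus the control mean on injured replicate 1 (horizontal axis) and averaged over injured replicates 2 and 3 (vertical axis). The star is the median of the chemoreceptor genes; Krt1, Krt10 and Krt14 lie at 8.85, 4.64 and 2.66 on the horizontal axis, and all keratins lie below the star on the vertical axis.

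Genes that work with keratins in the epidermis were read from lists, to see whether they shared the high reading of injured replicate 1. Desmosomes are the junctions to which keratin filaments are anchored. Of 11 desmosome genes, 4 were at least 1 log2 unit higher on injured replicate 1 than on every other array, against 1.57% of genes. Dsp, which encodes desmoplakin, the link from keratin to the junction, read 9.88, 6.09 and 5.91 on the injured arrays and 5.50, 5.47 and 5.58 on the control arrays. Dsc3 and Dsg1, cadherins of epidermal desmosomes, were 3.92 and 3.93 above their control means on injured replicate 1, and Perp was 3.93 above it. Dsp, Dsc3 and Dsg1 were chosen after their values were seen. The 2 brightest genes of the list, Jup and Pkp2, which heart and other tissues also use, read 8.38 and 7.04 on injured replicate 1, against 7.49 to 7.63 and 6.39 to 7.17 on the control arrays. None of the 11 passed a limma adjusted p of 0.05, and their median difference was 0.74. At an unadjusted p under 0.05, 3 were higher and 0 lower, against 4.39% and 7.25% of all genes.

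Cornified envelope genes build the tough shell of dead epidermal cells. Flg, which encodes filaggrin, the protein that bundles Krt1 and Krt10 filaments, read 11.91, 7.62 and 7.31 on the injured arrays and 6.14, 5.86 and 6.50 on the control arrays. Of the 26 genes measured, 3 (Flg, Tgm3 and Scel) were at least 1 log2 unit higher on injured replicate 1 than on every other array. That margin was met by 1.57% of all genes. The other bright gene of this list, Sprr4, was highest on injured replicates 2 and 3, as the chemoreceptor genes were, at 6.96, 9.59 and 9.27 on the injured and 6.64, 6.57 and 7.55 on the control arrays. In the list 14 of 26 genes had an unadjusted p under 0.05, all higher in injured tendon, against 4.39% of all genes, 0 passed a limma adjusted p of 0.05, and the median difference was 0.76. For 17 of the 26 every injured array was above every control array, as for 7.09% of all genes.

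Several markers of keratinocytes, the cells of the epidermis, were high on the same array. Of 12 markers, 5 were at least 1 log2 unit higher on injured replicate 1 than on every other array, against 1.57% of genes. All 12 differences between the groups were above 0, against 61.6% over all genes. The log2 of the summed signal of the list was 12.8 on injured replicate 1, 10.3 on replicate 2 and 10.1 on replicate 3, against 9.42 to 9.62 on the control arrays. Flg and Perp led the list, and Serpinb5, a gene of epithelial cells chosen after its values were seen, was 4.76 above its control mean on injured replicate 1. Flg, Loricrin, Dsc3, Dsg3 and Perp are also on the lists above. Sfn, and Col17a1 of basal keratinocytes, read 6.71 and 6.20 on injured replicate 1, against 6.88 and 6.27 on injured replicate 2. Loricrin, a cornified envelope gene, read 6.49, 7.34 and 7.18 on the injured arrays. Dsg3 read 5.90, 6.77 and 6.05 and Lypd3 5.43, 5.90 and 5.62 on the same arrays. These markers were not highest on injured replicate 1 and were named after their values were seen. What part RNA of skin has in the reading of injured replicate 1 was not tested, and more cells of a type and more RNA per cell cannot be told apart in bulk tissue.

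Other partners of keratins held no gene at least 1 log2 unit higher on injured replicate 1 than on every other array. This was so for 8 hemidesmosome genes, which tie keratin to the basement membrane, and for 12 regulators of keratinocytes. Lists this short can hold none, since 1.57% of all genes met that margin. Tp63 and Grhl1, regulators named after their values were seen, were highest there by 0.32 and 0.27. The other genes of both lists were not highest there. Dst and Cd151, the brightest hemidesmosome genes, were 0.31 and 0.29 below their control means on injured replicate 1. Klf4 and Klf5, the brightest regulators, read 8.61 and 7.14 there, against 7.92 to 8.93 and 7.65 to 7.93 on the control arrays. The hemidesmosome list had a median difference of -0.84 and the regulators of 0.22. At an unadjusted p under 0.05, 1 hemidesmosome gene was higher and 2 were lower. Among the regulators 1 was higher and 0 lower, against 4.39% and 7.25% of all genes.

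Keratin-associated proteins, which fill the hair shaft between keratin filaments, followed the hair keratins. All 42 genes had injured replicates 2 and 3 above the other 4 arrays, as did 49.7% of all genes and 99.3% of chemoreceptor genes. None of the 42 was highest on injured replicate 1. Krtap5-8 and Krtap10-1, the brightest, were 0.22 and 0.30 below their control means on injured replicate 1 and 2.21 and 1.85 above them on injured replicate 2. Markers of simple epithelium gave a median of 0.08 on injured replicate 1 and of 0.52 and 0.49 on injured replicates 2 and 3, with Esrp2 and Spint1, the brightest, reading 6.02 and 5.57 on injured replicate 1. Melanocyte and mesothelium markers had median differences of 0.37 and 0.44. None of the 6 genes in either list was at least 1 log2 unit higher on injured replicate 1 than on every other array. Since 1.57% of all genes met that margin, lists this short can hold none. Mitf of the melanocyte list was highest there by 0.79, and the other genes of both lists were not highest there.

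Vim and Des, the brightest intermediate filament genes of other classes, did not share the high reading of Krt1, Krt10 and Krt14. Vim, which encodes the vimentin of connective tissue cells, read 19.05, 16.65 and 16.08 on the injured arrays and 18.81, 19.26 and 19.26 on the control arrays. Des, which encodes the desmin of muscle, read 17.80, 10.59 and 15.41 on the injured arrays and 18.74, 16.48 and 16.08 on the control arrays. On injured replicate 1 both were near the control arrays, as were the muscle genes Acta1 and Myh4, which were at the upper end of the scale there. Of the 16 genes in this list, 0 were highest on injured replicate 1. For 9 of the 16 the difference between the groups was above 0, against 61.6% of all genes, and the median was 0.14.

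**Figure D4:**
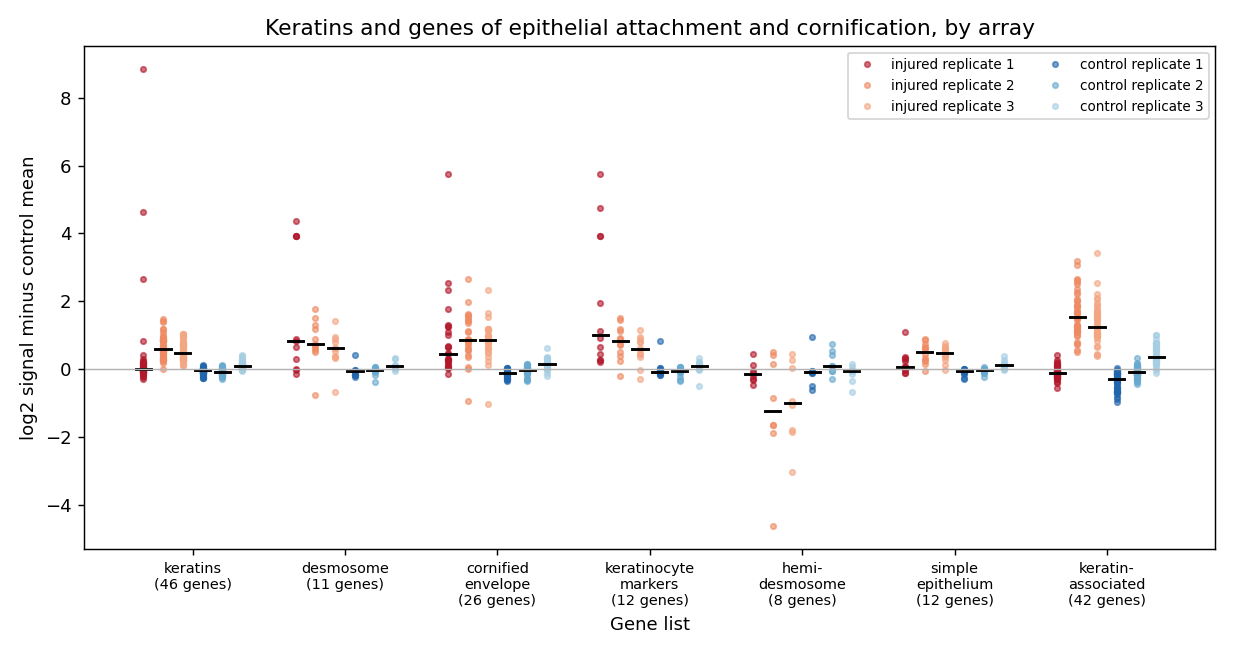
Log2 signal minus the control mean of each gene (points) in 7 gene lists, with the 6 arrays side by side from injured replicate 1 to control replicate 3 and the median of each as a black bar. Points more than 2 units above 0 on injured replicate 1 are in the keratin, desmosome, cornified envelope and keratinocyte lists, while keratin-associated genes are above 0 on injured replicates 2 and 3.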

How the data were processed

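Tendon RNA of 3 injured and 3 control rats was hybridised to 1 Affymetrix array per sample. The deposited values are log2 signals, and the submitters' processing notes name Affymetrix Expression Console as the software the authors used. Its version and the background correction and normalization applied are unstated there. The titles name a rat array and the protocol a mouse array, and the probe sets carry rat gene symbols in the annotation of the platform. Of 68842 probe sets, 23446 had 1 gene symbol, 505 had several and 44891 had none. Symbols were checked through Entrez identifiers against RefSeq genes on GRCr8 (22077 matched, 1 changed). Values were used as deposited, without a filter. Injured and control tendon were compared over 22093 genes in limma 3.58.1 (R 4.3.3), with lmFit and eBayes. Tests were two-sided, and p-values were adjusted by the Benjamini-Hochberg method across every gene and read at 0.05. Arrays have no read depth, and their number limits the precision. Members, lists, tests and alternatives were chosen with earlier results of these data known.

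Keratins given array by array are the 6 with the largest differences in each direction (none was below 0), the 3 of highest mean signal in the epidermal, hair, simple and mucosal classes, and known filament partners. From the lists the 2 genes of highest mean signal are named, except for melanocyte and mesothelium markers, which are given mainly as counts. Markers of adipocytes, endothelium, macrophages and neutrophils are also excepted and had median differences of -2.16, -2.03, -0.59 and 0.86. None of these markers was at least 1 log2 unit higher on injured replicate 1 than on every other array. That margin was met by 1.57% of all genes, so lists this short can hold none. Pecam1, Kdr and Fabp4 were highest there by 0.91, 0.83 and 0.44, and the other genes of these lists were not. The skeletal muscle and tenocyte lists had medians of -4.20 and -5.79. Other genes were chosen after their values were seen. The fit was tested on simulated data. Alternatives are given in the closing section.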

Additional observations from a re-analysis of the deposited data

How the results depend on the processing

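No gene and no keratin passed the limma adjusted p as reported, and 13 of 16 alternatives also gave 0. Array weights, whose estimation stopped before convergence and which ran from 0.0531 on injured replicate 1 to 29 on injured replicate 3, gave 18098 genes and 43 keratins. Leaving out each replicate gave 0 to 13418 genes and 0 to 34 keratins, with every one of these calls made without injured replicate 1. Injured replicate 1 alone against the controls, chosen after seeing the data, gave 9 genes and 1 keratin, Krt1. That array was picked for its high readings, it has no replicate and the spread comes from the controls alone, so these calls are no evidence beyond the readings themselves. The cause of these changes was not tested. The median keratin difference, 0.43 as reported, was -0.0792 after quantile normalization, -0.10 after centring on array medians, -0.94 after centring on chemoreceptor medians and 0.0183 for injured replicate 1 alone, and ran between 0.28 and 0.59 over the replicates left out. Differences above 0, 46 as reported, numbered 18, 15, 2 and 28 at these settings, 21 of the 21 keratins left when dim genes were left out, and 45 to 46 over the replicates left out. With the replicate number as a block the median was 0.43 and 0 genes passed. Deviations of same-numbered arrays correlated at r = 0.48, -0.0426 and 0.589 for replicates 1, 2 and 3, so shared deviation was seen for some numbers only. The labels state no pairing, and the main fit took the numbers as no pairs. The block changed no call.

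The sign of single genes turned as follows. Quantile normalization gave -0.11 for Krt13, -0.096 for Krt17, -0.15 for Krt19, -0.21 for Krt79, -0.29 for Krt8, -0.31 for Krt85, -0.033 for Krt88, -0.017 for Esrp2, -0.35 for Spint1, -0.041 for Krt15, -0.22 for Krt2 and -0.45 for Krt42. Centring on array medians gave -0.10 for Krt13, -0.12 for Krt17, -0.15 for Krt19, -0.28 for Krt79, -0.30 for Krt8, -0.05 for Krt83, -0.39 for Krt85, -0.26 for Krt88, -0.0067 for Pkp2, -0.0067 for Esrp2, -0.35 for Spint1, -0.027 for Krt15, -0.25 for Krt2 and -0.48 for Krt42. Centring on chemoreceptor medians gave -0.83 for Krt12, -0.94 for Krt13, -0.10 for Krt14, -0.48 for Krt16, -0.96 for Krt17, -0.50 for Krt18, -0.99 for Krt19, -0.81 for Krt76, -0.48 for Krt78, -1.12 for Krt79, -1.15 for Krt8, -0.89 for Krt83, -1.23 for Krt85, -1.10 for Krt88, -0.85 for Pkp2, -0.85 for Esrp2, -1.20 for Spint1, -0.02 for Krtap5-8, -0.30 for Krtap10-1, -0.57 for Krt9, -0.87 for Krt15, -1.09 for Krt2, -0.65 for Krt26, -0.72 for Krt28, -1.32 for Krt42 and -0.80 for Fbxo32. Array weights gave 0.30 for Klf5, -0.80 for Trim63 and -1.85 for Fbxo32. Without injured replicate 1 the values were 0.14 for Klf5, -1.39 for Trim63 and -2.54 for Fbxo32, without injured replicate 2 0.082 for Jup, without injured replicate 3 0.042 for Jup and -0.005 for Krt42, and without control replicate 2 -0.17 for Fbxo32. Over the 6 replicates left out in turn, the difference of Jup ran between -0.70 and 0.08, of Krt42 between -0.005 and 0.075, of Trim63 between -1.39 and 3.44 and of Fbxo32 between -2.54 and 2.17. Injured replicate 1 alone gave -0.11 for Krt12, -0.05 for Krt13, -0.027 for Krt76, -0.13 for Krt83, -0.21 for Krt85, -0.11 for Krt88, 0.83 for Jup, 0.11 for Klf4, 0.70 for Des, -0.11 for Spint1, -0.22 for Krtap5-8, -0.30 for Krtap10-1 and -0.01 for Krt42. The cause was not tested. Most keratins lay near or below the signal of chemoreceptor genes, which limits what small differences can show.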

Other observations

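Krt1, Krt10 and Krt14 were among 347 genes that read at least 1 log2 unit higher on injured replicate 1 than on every other array. Calml5 and Krtdap, genes of cornified epidermis chosen after their values were seen, had this pattern. Calml5, a calmodulin-like gene of differentiating keratinocytes, read 9.15, 4.85 and 4.69 on the injured arrays and 4.20, 4.26 and 4.49 on the control arrays. Krtdap, the keratinocyte differentiation-associated gene, read 8.07, 4.90 and 4.91 on the injured arrays and 4.69, 4.46 and 4.55 on the control arrays.

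Trim63 and Fbxo32, ubiquitin ligase genes of muscle wasting chosen after their values were seen, ranked 3rd and 9th by this margin. The 9 measured skeletal muscle markers, 0 of which were among the 347 genes, could mostly not show such a margin. Acta1 and Myh4 were at the upper end of the scale, 19.93, on injured replicate 1 and on all control arrays. Ttn, Myh1, Mb, Tnnt3 and Atp2a1 read 18.97 to 19.74 on control replicate 1, too near that end for a margin of 1 log2 unit. Myh2 and Ckm had room for it and read 18.74 and 18.15 on injured replicate 1, against 18.49 and 18.70 on control replicate 1. Trim63 read 18.22, 8.92 and 8.55 on the injured arrays and 12.88, 8.75 and 8.75 on the control arrays, and Fbxo32 read 17.87, 8.64 and 8.44 on the injured arrays and 13.37, 9.62 and 10.26 on the control arrays. The differences between the groups were 1.77 (SE 2.90) for Trim63 and 0.57 (SE 2.79) for Fbxo32, with limma adjusted p of 0.680 and 0.896.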
